A study of Mus musculus with 2 samples.

Results

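A set of 10 genes of the actin cytoskeleton, which leukocytes use to move, spread and form contacts, was followed in poly(A) RNA from mouse spleen. The genes are Actb, Actg1, Tmsb4x, Tmsb10, Pfn1, Cfl1, Coro1a, Lcp1, Was and Arhgdib. They were picked by name, and all 10 were found, by unversioned Ensembl identifier, among the 43346 genes of the deposited tables, with 57 annotated transcripts. The 2 libraries, called library 2 and library 1, are biological replicates of one group, adult spleen of the C57BL/6J strain collected at the age of 8 weeks. Per the labels the tissue came from littermates of both sexes, the sex of each sample was not collected, the health state is unknown and no treatment is named. C57BL/6J is the common inbred black laboratory strain. Both samples carry the same donor identifier and separate sample identifiers, so how many animals stand behind each library is not given. There is no second group. No conditions could therefore be compared, and the differences described are between replicate libraries.

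Actin exists as free monomers and as filaments that grow at one end and are taken apart at the other. Profilin feeds monomers to growing ends, beta-thymosins hold a reserve of monomers, cofilin severs old filaments, and WASP switches on the Arp2/3 complex that starts branches. In blood cells these general parts work beside forms largely restricted to the haematopoietic lineage, such as coronin 1A, L-plastin, WASP and the GDP-dissociation inhibitor encoded by Arhgdib, and loss of WASP causes Wiskott-Aldrich syndrome in humans.

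Expected counts, the authors' estimates of reads per gene, came to 51393345 over all genes in library 2 and 49686344 in library 1. Levels are given in TPM, each transcript's share of all transcripts on a fixed total after correction for length, as mean ± SD of the 2 libraries (n = 2), and the SD may be purely technical. Haemoglobin genes took 30.3% of TPM in library 2, against 19.4% in library 1, and 13 exocrine pancreas genes took 7.49% and 9.41%. Markers of leukocytes, which the tissue label calls for, were present in both. The pan-leukocyte gene Ptprc stood at 218 TPM in library 2, against 266 TPM in library 1, and the summed level of 5 such genes, Rac2 among them, was 2123 and 2362 TPM. Smooth muscle and endothelial markers were also present, at 264 and 327 TPM for the 4 genes of the smooth muscle list and 502 and 597 TPM for the 4 of the endothelial list. Cells of those kinds express actin genes as well, and their part in the levels below was not tested. In bulk RNA, fewer cells of a type and less RNA per cell cannot be told apart.

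All 10 genes were detected at 1 TPM or more in both libraries, beside 12500 of all 43346 genes. The levels of the 10 genes spanned a wide range. Together they held 1.16% of TPM in library 2, against 1.57% in library 1, a summed level of 13654 ± 2926 TPM. With haemoglobin and pancreas genes removed before scaling the sum was 20705 TPM. The TPM of each of the 10 genes was higher, as it must be when genes are taken out of a fixed total. Actb alone made up 51.3% of that sum in library 2 and 55.8% in library 1. With Pfn1 and Coro1a it made up 81.3% and 84.8%. In order of mean TPM came Actb, Pfn1, Coro1a, Actg1, Cfl1, Arhgdib, Tmsb4x, Tmsb10, Lcp1 and Was. Of the 9 neighbouring pairs in that order, 7 were separated, meaning that both libraries of the upper gene lay above both libraries of the lower one. Arhgdib and Tmsb4x overlapped, and so did Lcp1 and Was, which stood in the opposite order in library 1. Ranks among 21474 protein-coding genes ran, in library 2, from 13 for Actb to 1905 for Was and, in library 1, from 9 for Actb to 1877 for Lcp1. With 2 libraries of one group no likeness of pattern can be measured, so only neighbours in mean TPM are named. Pfn1 lay between Rack1 and Rplp0, and Coro1a directly above Rps9. Actg1 lay between Klk1 and Arhgef1, Cfl1 between Vars and H2afz, Arhgdib between Sap25 and H2-T23, and Tmsb4x between Cnn2 and Aldh2. Tmsb10 lay directly below Myo1c, Lcp1 between Slc25a22 and Kmt2b, and Was between Atg16l2 and Ddx54.

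**Figure D1:**
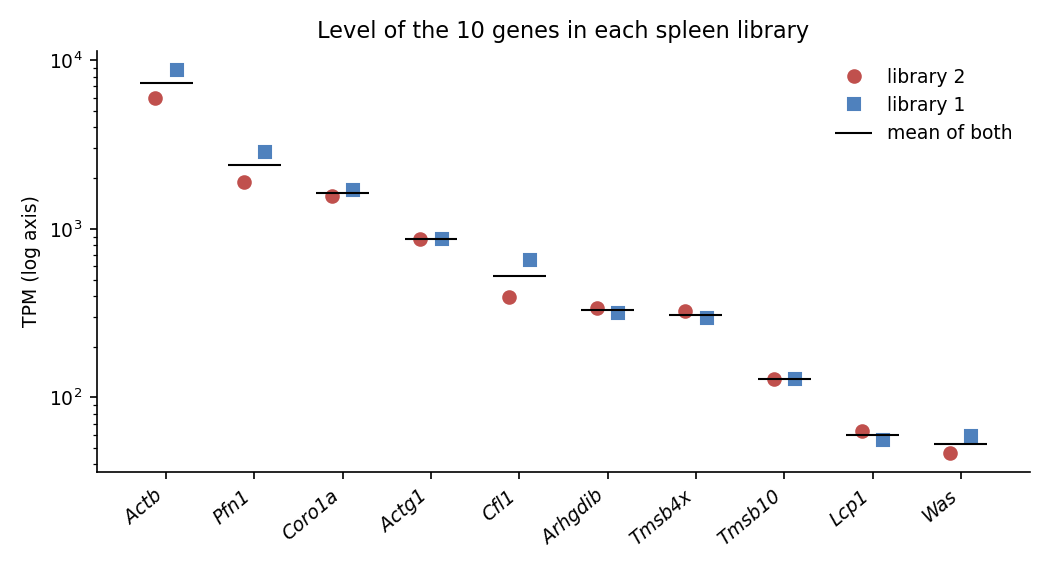
Level of each of the 10 genes in TPM on a log axis, with library 2 as circles, library 1 as squares and the mean of both as a line. Actb stands highest, at 5947 TPM in library 2, against 8774 TPM in library 1, and Was lowest by mean, at 47.0 and 58.9 TPM.

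Of the cytoplasmic actin genes, Actb led the set, and Pfn1 and Coro1a stood between it and Actg1. Actb, which encodes beta-actin (ENSMUSG00000029580, chromosome 5, 142903115 to 142906754 of GRCm38, minus strand), stood at 5947 TPM in library 2, against 8774 TPM in library 1, or 7360.5 ± 1999.5 TPM. Its expected counts were 427978 in library 2 and 553078 in library 1. It ranked 13 among 21474 protein-coding genes in library 2 and 9 in library 1, next in mean level to the trypsinogen gene Prss2 above and the antigen presentation gene Cd74 below. Actg1, which encodes gamma-actin (chromosome 11, 120345690 to 120348542, minus strand), stood at 872 TPM in each library, from 72988 counts in library 2 and 64266 in library 1. Actb thus exceeded Actg1 in TPM by 6.82-fold in library 2, against 10.1-fold in library 1. The excess was present in both libraries. On the TPM scale its size followed Actb, since Actg1 had the same TPM in each. With the scaling used for the ratios below, both genes differed, Actb at a log2 ratio of -0.38 and Actg1 at 0.17, library 2 over library 1.

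The coding sequences of this pair show how far reads can tell them apart. Both are 1128 bases long and differ at 128 of them, so that 88.7% of bases are identical, and the longest identical run is 62 bases, shorter than the 76-base reads. The first 90 bases of each, from the leading transcript in GENCODE M21, are printed in lower case with the bases that differ between the pair in capitals.
Actb: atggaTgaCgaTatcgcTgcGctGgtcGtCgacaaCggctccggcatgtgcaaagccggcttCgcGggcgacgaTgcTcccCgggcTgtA
Actg1: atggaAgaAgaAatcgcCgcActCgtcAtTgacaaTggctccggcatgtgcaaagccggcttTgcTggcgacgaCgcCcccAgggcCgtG

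Copies of these genes elsewhere in the genome were a larger source of shared sequence. Of the 76-base stretches in the leading Actg1 transcript, 54.3% occur word for word in a transcript of another gene, against 2.49% for Actb, 7.27% for Cfl1 and 2.07% for Lcp1. The processed pseudogene Gm12715 shares 895 such stretches with Actg1 and was assigned 8540 counts in library 2 and 10219 in library 1, equal to 11.7% and 15.9% of the Actg1 count. The deposited posterior SD of the count, a measure of how surely reads were placed, was 219 reads for Actg1 in library 2 and 242 in library 1. For the other 9 genes it was at most 2.17 reads. With the TPM of pseudogenes added to their parent genes, an alternative added after the data were seen, the Actb excess over Actg1 was 5.70-fold in library 2, against 7.97-fold in library 1.

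The muscle actins lay far below. Acta2, the smooth muscle actin, stood at 162 TPM in library 2, against 190 TPM in library 1, and Actg2, another smooth muscle form, at 11.6 and 12.6 TPM. The cardiac actin gene Actc1 had 1.89 TPM from 127 counts in library 2, against 0.21 TPM from 13 counts in library 1. The skeletal actin gene Acta1 stood at 0.89 and 0.49 TPM. Actb made up 85.0% of the TPM of these 6 actin genes in library 2 and 89.1% in library 1.

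Of the genes whose products bind actin monomers, the profilin gene was the more abundant. Pfn1 (chromosome 11, 70651850 to 70654644, minus strand) encodes profilin 1, which delivers monomers to growing filament ends. It stood at 1903 TPM in library 2, against 2859 TPM in library 1, or 2381 ± 676 TPM. Both actins together exceeded it by 3.58-fold in library 2, against 3.37-fold in library 1. No other profilin came near: Pfn2 had 1.67 and 1.2 TPM, Pfn4 had 0 counts in library 2 and 2 in library 1, and Pfn3 had 0 counts in both, which allows up to 3 counts.

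The beta-thymosins were lower than both actins and profilin in both libraries. Tmsb4x (chromosome X, 167207093 to 167209315, minus strand) encodes thymosin beta 4, the main protein that sequesters actin monomers in many cells. It stood at 327 TPM in library 2, against 294 TPM in library 1, or 310.4 ± 22.9 TPM, so that Actb exceeded it by 18.2-fold and 29.8-fold. Tmsb10 (chromosome 6, 72957347 to 72958748, minus strand), its close relative, stood at 129 TPM in library 2, against 128.5 TPM in library 1. Tmsb4x exceeded Tmsb10 by 2.53-fold in library 2, against 2.29-fold in library 1. Their transcripts are the shortest of the set, at 572 and 358 bases of effective length in library 2 and 555 and 344 in library 1. With full lengths in place of effective lengths the mean ratio of Tmsb4x to Tmsb10 was 2.80, beside 2.41 as deposited. The remaining beta-thymosin genes were under 1 TPM. Tmsb15l had 0.52 and 0.83 TPM, Tmsb15b1 had 0.31 and 0.37 TPM, and Tmsb15a and Tmsb15b2 had 0 counts in both libraries.

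The thymosin pair differs more. Their coding sequences are 135 bases each, 70.4% of bases are identical, and no identical run is longer than 10 bases. They are shown whole, again with the differing bases in capitals.
Tmsb4x: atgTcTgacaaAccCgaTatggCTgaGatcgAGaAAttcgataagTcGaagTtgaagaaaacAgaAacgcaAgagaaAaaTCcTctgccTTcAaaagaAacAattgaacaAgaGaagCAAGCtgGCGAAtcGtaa
Tmsb10: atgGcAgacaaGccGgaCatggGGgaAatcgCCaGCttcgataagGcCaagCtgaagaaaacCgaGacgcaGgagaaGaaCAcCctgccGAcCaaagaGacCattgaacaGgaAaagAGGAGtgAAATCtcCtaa

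A copy outside the pair matters only for Tmsb10, of whose stretches 45.9% recur elsewhere, mostly in the predicted gene Gm9844. That copy was assigned 26.6 counts in library 2 and 34.1 in library 1, beside 2440.4 and 2128 for Tmsb10. No stretch of the leading Tmsb4x transcript recurs in another gene.

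Genes for filament turnover came next. Cfl1 (chromosome 19, 5490455 to 5495201, plus strand) encodes cofilin 1, which severs filaments. It stood at 396 TPM in library 2, against 656 TPM in library 1, or 526 ± 184 TPM. Its relatives Dstn, also called destrin or actin depolymerizing factor, and Cfl2 were at 7.88 and 7.08 TPM and at 1.73 and 0.97 TPM, so Cfl1 held 97.6% of the family's TPM in library 2, against 98.8% in library 1. Coro1a (chromosome 7, 126699773 to 126707787, minus strand) encodes coronin 1A, a haematopoietic coronin that binds filaments and the Arp2/3 complex and that T cells need to survive. It stood at 1564 TPM in library 2, against 1705 TPM in library 1, or 1635 ± 99.9 TPM. It was the highest of the 7 coronin genes, with 75.4% of their TPM in library 2, against 74.4% in library 1. Coro1b, the widely expressed type, followed at 305 and 332 TPM, then by mean level Coro7 at 134 and 173 TPM and Coro2a at 31.8 and 44.3 TPM, although Coro1c, at 34.6 and 34.4 TPM, stood above Coro2a in library 2. Coro6 was under 1 TPM, at 0.96 and 0.68.

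Lcp1 (chromosome 14, 75131101 to 75230842, plus strand) encodes L-plastin, which bundles filaments in leukocytes. Its level was far below that of Coro1a, at 63.2 TPM in library 2, against 56.0 TPM in library 1, or 59.6 ± 5.10 TPM. Coro1a exceeded it by 24.7-fold in library 2, against 30.4-fold in library 1. Within its own family Lcp1 nevertheless held 97.4% of TPM in library 2, against 96.9% in library 1. The plastin of other tissues, Pls3, had 1.27 and 1.46 TPM, and the intestinal plastin Pls1 had 0.44 and 0.34 TPM.

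Was and Arhgdib did not lead their families. Was (chromosome X, 8081453 to 8090498, minus strand) encodes WASP, the activator of the Arp2/3 complex in blood cells. It stood at 47.0 TPM in library 2, against 58.9 TPM in library 1, or 52.9 ± 8.48 TPM. That was 35.4% and 33.0% of the TPM of the 5 WASP and WAVE genes, below Wasf2, which encodes WAVE2, at 62.8 and 74.8 TPM. Was stood above the other WASP gene, Wasl, in both libraries, with Wasl at 21.7 and 43.7 TPM. The neuronal WAVE genes Wasf1 and Wasf3 were under 1 TPM, as was Wipf3, a relative of the WASP partner gene Wipf1. Arhgdib (chromosome 6, 136923655 to 136941899, minus strand) encodes a GDP-dissociation inhibitor of blood cells, a protein that keeps GTPases inactive in the cytosol. It stood at 338 TPM in library 2, against 318 TPM in library 1, or 328 ± 13.7 TPM. The widely expressed relative Arhgdia was higher in both, at 558 and 771 TPM, and Arhgdig had 6.46 and 12.8 TPM.

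**Figure D2:**
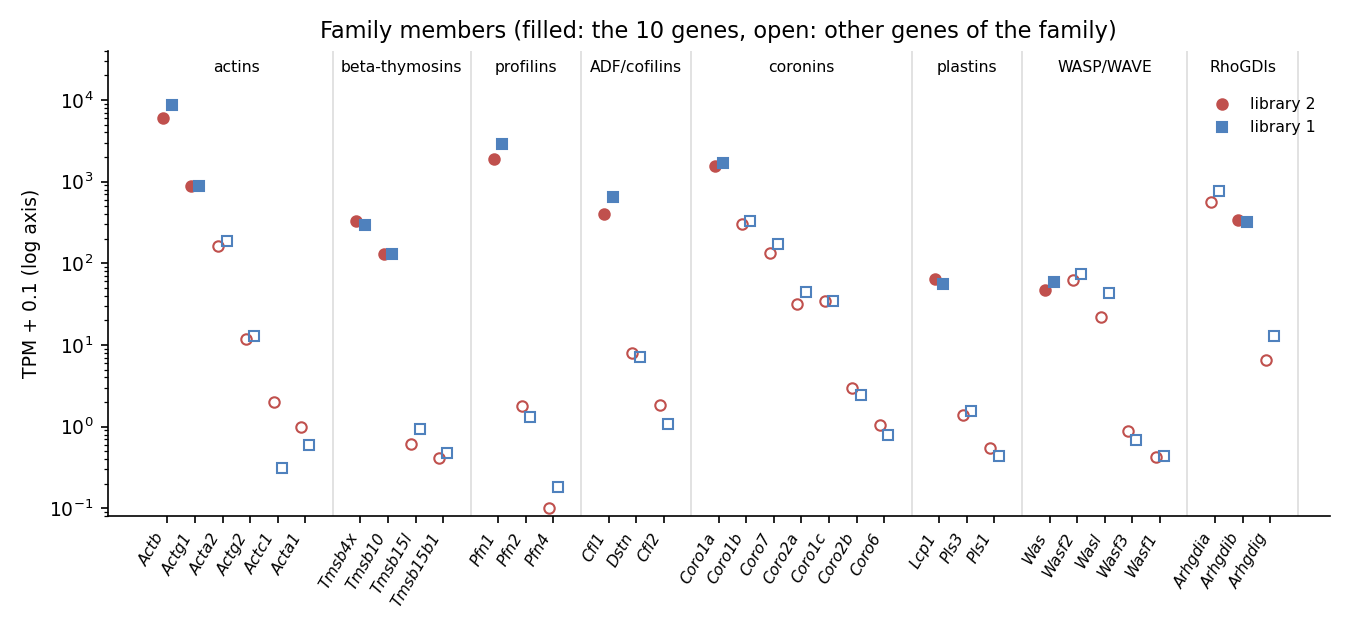
TPM + 0.1 on a log axis for the gene families of the 10 genes, library 2 as circles and library 1 as squares, with filled symbols for the 10 genes; Tmsb15a, Tmsb15b2 and Pfn3, at 0 in both, are not drawn. Pfn1, Cfl1, Coro1a and Lcp1 stand above every other member of their families in both libraries, whereas Was lies below Wasf2 and Arhgdib below Arhgdia.

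The transcript tables split each gene's TPM among annotated transcripts. The same transcript led in both libraries for all 10 genes, and each leading transcript was protein-coding. For 3 genes it held at least 90% of the gene's TPM in both. These counts cover the 10 genes only and are not set against other genes. Cfl1 has a single annotated transcript. Was-201 held 99.7% in library 2, against 99.8% in library 1, and Tmsb4x-201 held 96.9% and 96.8%. Lcp1-209 crossed that limit in library 1 only, with 86.1% in library 2, against 91.5% in library 1, and Lcp1-206 took 9.41% and 6.20%. In Tmsb10, Tmsb10-203 held 79.96% and 82.4%, with Tmsb10-204 at 15.02% and 13.3%.

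Several genes divided their signal among protein-coding forms of different length. Actb-201, with 1920 bases, held 63.5% of Actb in library 2 and 60.4% in library 1, and the 930-base Actb-208 held 32.6% and 33.7%. In Actg1 the division was between Actg1-202, at 54.7% and 54.0%, and Actg1-204, at 34.2% and 31.2%. Arhgdib was divided between Arhgdib-203, at 72.7% and 76.6%, and Arhgdib-201, at 24.5% and 21.1%. Coro1a was likewise divided, with Coro1a-201 at 46.7% and 55.8% and Coro1a-205 at 29.2% and 20.8%. Such shares are estimates from reads that fit more than one transcript, and the annotation decides which forms can receive them.

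Transcripts not annotated as protein-coding made up a sizeable part of Coro1a and Pfn1. Forms with a retained intron, which keep sequence that splicing normally removes, held 20.3% of Coro1a TPM in library 2, against 21.2% in library 1, led by Coro1a-208 at 9.72% and 9.47% and Coro1a-204 at 6.27% and 8.21%. They held 8.58% and 11.7% of Actg1, where Actg1-207 had 5.28% and 6.82%. Of the 10 leading transcripts, that of Pfn1 differed most in its share between the libraries. Pfn1-204, annotated as a target of nonsense-mediated decay, a pathway that removes transcripts with early stop codons, stood at 492 TPM in library 2, against 258 TPM in library 1. The deposited interval was 470.2 to 512 TPM in library 2 and 230.1 to 281 TPM in library 1. The main form Pfn1-201 stood at 1276 and 2446 TPM. The lower Pfn1 level of library 2 thus lay mostly in Pfn1-201, while Pfn1-204 was higher there and made up 25.85% of the gene, against 9.03% in library 1. Pfn1-203, a form with a retained intron, was also lower, at 99.6 TPM in library 2, against 141.5 TPM in library 1. It held 5.23% and 4.95% of the gene. The minor form Pfn1-202 stood at 35.7 and 13.3 TPM. Minor Actb forms also traded places. Actb-206 had 1.88 TPM in library 2, against 350.4 TPM in library 1, and Actb-207 had 115.5 and 9.87 TPM. The cause of these differences was not tested.

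**Figure D3:**
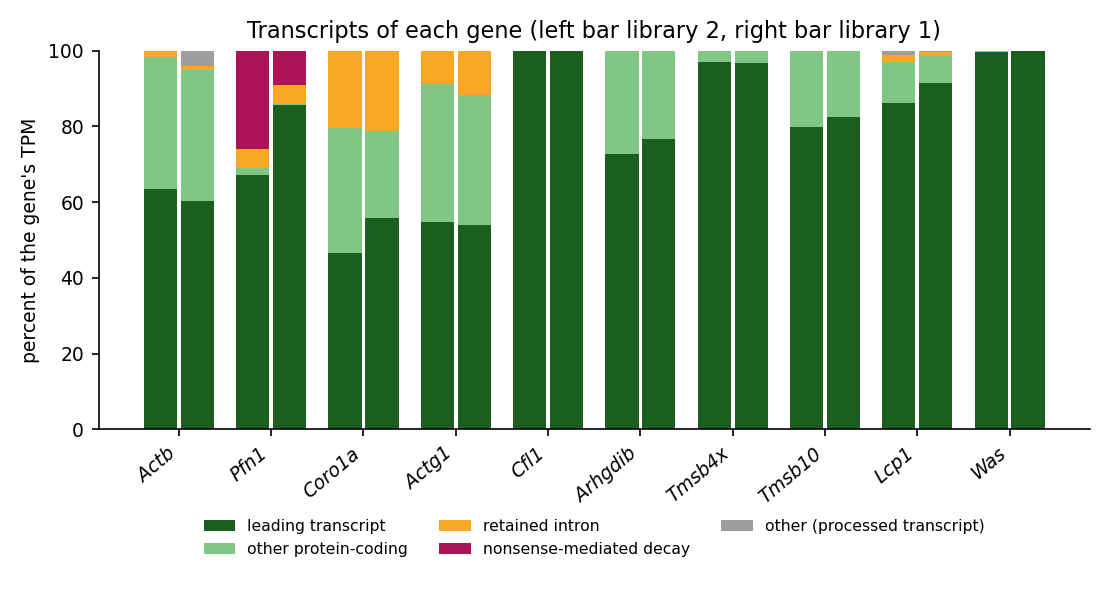
Percent of each gene's TPM held by its leading transcript, by other protein-coding transcripts and by forms annotated as retained intron, nonsense-mediated decay or processed transcript, with library 2 as the left bar and library 1 as the right bar. Retained introns make up 20.3% of Coro1a in library 2 and 21.2% in library 1, and the nonsense-mediated decay form of Pfn1 makes up 25.85% and 9.03%.

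Between the libraries the 10 genes did not move together. Ratios were taken as library 2 over library 1 from expected counts after TMM scaling, which sets the bulk of genes to no change, and with 1 library on each side they have no replicate check and no p-value. The median log2 ratio of the 10 was 0.041, beside 0.009 over all 17547 genes with 10 or more counts in total. Of the 10 genes, 5 had a ratio above 0, beside 8933 of all 17547 genes tested. Of the 1970 genes at or above the mean level of Was, 658 did. Only Cfl1 passed 1.5-fold, just over the limit, at a log2 ratio of -0.59, and its call was lost when the scaling used genes with 50 or more counts and when the trend with GC content was taken off. Over all genes tested, 18.5% passed 1.5-fold in either direction, 10.5% higher and 7.96% lower in library 2, and 7.24% passed 2-fold, as none of the 10 did. Among the 1970 genes at or above the mean level of Was, the median was -0.12, 10% passed in either direction and 6.4% were lower, so that 1 of 10 is close to the background.

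Lower in library 2 were Cfl1, Pfn1, Actb, Was and Coro1a. Cfl1 stood at 0.665-fold, with an exact 95% counting interval of 0.6535 to 0.677. Pfn1 stood at 0.714-fold (0.707 to 0.721) and Actb at 0.766-fold (0.763 to 0.769). The departures of Was, at 0.870-fold (0.837 to 0.905), and of Coro1a, at 0.942-fold (0.933 to 0.951), were smaller. Higher in library 2 were Tmsb4x, Lcp1, Arhgdib, Tmsb10 and Actg1, in a narrow span of ratios. Tmsb4x stood at 1.24-fold (1.203 to 1.28) and Lcp1 at 1.204-fold (1.17 to 1.24). Arhgdib stood at 1.17-fold (1.15 to 1.1995), Tmsb10 at 1.13-fold (1.07 to 1.2034) and Actg1 at 1.12-fold (1.11 to 1.14). Directions depended on the scaling for Coro1a, which stood at 0.059 on the log2 scale once the GC trend was taken off, and for Actg1, whose TPM was the same in both libraries. No interval includes 1, but they cover counting error only. The biological coefficient of variation between these libraries, the relative spread beyond counting error, was 0.186 over genes. The median absolute log2 ratio was 0.25 for the 10 genes, as it was for all genes tested. For the 1970 genes at or above the mean level of Was it was lower, at 0.20.

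GC content moved with these ratios. Over the 12388 genes at 1 TPM or more in both libraries with a sequence, genes of low GC content tended to be higher in library 2, with a Spearman correlation of -0.36 across genes, which are not independent replicates. The 10 genes leaned the same way, at a Spearman correlation of -0.53 over 10 points that share the same libraries. Tmsb4x, with 46.4% GC the lowest of the set, had the highest log2 ratio, 0.31, and Lcp1, with 47.4% GC, followed at 0.27. Other genes did not follow this order. Tmsb10, with 57.4% GC, stood at 0.18, and Coro1a, with 58.6% GC the highest of the set, at -0.09. The lowest ratio, -0.59 for Cfl1, came with 53.6% GC. After the median ratio of genes of similar GC content was taken off, Actb was at -0.41, Pfn1 at -0.39 and Cfl1 at -0.55, and the 6 genes at or above 0 lay between 0.059 for Coro1a and 0.29 for Tmsb10. Among marker lists of leukocytes, the median log2 ratio was -0.10 for the pan-leukocyte list, 0.13 for B cells, 0.20 for T cells, 0.17 for macrophages and 0.29 for neutrophils. Over all genes tested 18.5% passed 1.5-fold in either direction. Of the 6 macrophage markers 2 were higher in library 2 by more than 1.5-fold, and of the 5 neutrophil markers Camp was lower, at -0.67. All 5 erythroid markers were higher by more than 1.5-fold, with a median of 0.90. The medians of the remaining lists were -0.06 for platelets, -0.19 for smooth muscle, 0.16 for endothelium and 0.30 for exocrine pancreas. The 13 pancreas genes were split, with 4 higher and 2 lower in library 2 by more than 1.5-fold, beside 18.5% of all genes tested in either direction. Their summed share of TPM was lower in library 2, at 7.49%, against 9.41% in library 1. The part of these cells in the ratios of the 10 genes was not tested.

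**Figure D4:**
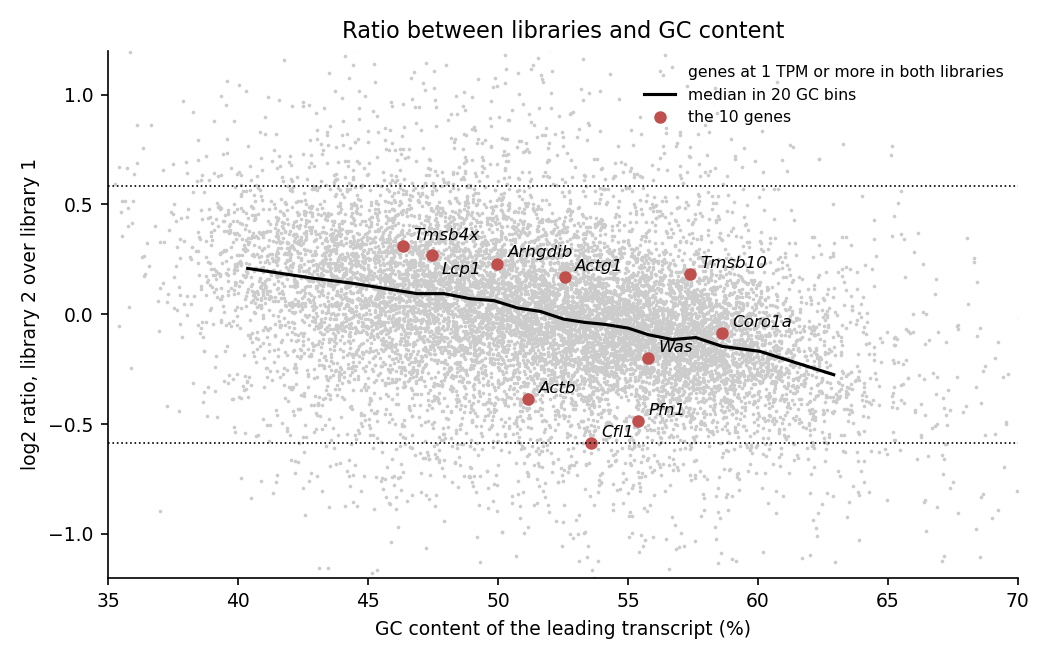
Log2 ratio of library 2 over library 1 against the GC content of each gene's leading transcript in percent, with genes at 1 TPM or more in both as grey points, their median in 20 bins of GC content as a line, the 10 genes in red and dotted lines at 1.5-fold; 171 of 12388 genes lie outside the plotted range. The median line slopes down with GC content, and Actb, Pfn1, Cfl1 and Was lie below it.

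Of 116 further genes in 19 lists of regulators and partners, 97 were detected at 1 TPM or more in both libraries, beside 12500 of all 43346 genes. Among those 97, 1 was higher and 4 were lower in library 2 by more than 1.5-fold, beside 8.81% of all genes at that level in either direction. Over the 111 with 10 or more counts in total, 7 were higher and 4 lower, or 9.91% in either direction, beside 18.5% of all genes tested. The median log2 ratio of the 111 was 0.023. The gene higher in library 2 was Pfn2, at 0.62. The lower ones were Arhgdig (-0.91), Fscn1 (-0.68), which encodes the bundling protein fascin, Rac1 (-0.68) and Rac3 (-0.59).

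The Arp2/3 complex, the target of WASP, was led by Arpc1b, the subunit form prominent in blood cells, at 552 TPM in library 2, against 687 TPM in library 1. By mean level Arpc2 followed at 168 and 272 TPM and Arpc3 at 139 and 121 TPM, with Arpc5 above Arpc3 in library 1, so that Was lay below each of these. Actr3b was the 1 gene of 10 in that list under 1 TPM. Wipf1, which encodes the partner that protects WASP from breakdown, stood at 52.7 and 65.5 TPM, above Was in each library. Hcls1, a cortactin of blood cells, had 103 and 114 TPM. In the WAVE complex Abi3 led with 147 and 213 TPM, followed by Brk1 with 96.3 and 88.1 TPM and Abi1 with 56.6 and 61.1 TPM. All 8 of its genes were detected.

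Of the proteins that act on or beside cofilin, Wdr1, at 101 and 114 TPM, Cap1, at 105 and 97.4 TPM, and Twf2, at 79.9 and 84.3 TPM, led their list by mean, each below Cfl1, and Cap2 was under 1 TPM. None of the 12 genes of that list, Cap2 included, passed 1.5-fold. Over all genes tested 18.5% did, and 8.81% of those at 1 TPM or more in both libraries. A list of 12 genes is too small to be set apart from these shares.

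Cross-linking, capping and motor protein genes were measured as well. Flna, encoding filamin A, stood at 502 and 443 TPM, above Actn4 at 141 and 154 TPM and, by mean, above Actn1 at 54.2 and 52.3 TPM. Lcp1 lay between the alpha-actinin genes Actn4 and Actn1 in both libraries. Gsn, encoding the severing protein gelsolin, had 148 and 155 TPM, Capzb 118 and 148 TPM and Capg 113 and 118 TPM. Fmnl1, a formin of leukocytes, led the formins at 122 and 131 TPM, ahead by mean of Diaph1 at 35.7 and 31.2 TPM and Inf2 at 25.4 and 25.6 TPM. Moesin, the membrane linker of lymphocytes, was the highest of its family, with Msn at 143 and 132 TPM, Ezr at 56.7 and 66.2 TPM and Rdx at 5.63 and 5.21 TPM. The myosin light chain Myl6 had 379.5 and 314 TPM, the haematopoietic myosin Myo1g 169 and 199.7 TPM and Myl12b 156 and 166 TPM. Tpm3 led the tropomyosins at 127 and 115 TPM, with Tpm4 at 56.1 and 66.5, Tpm1 at 35.1 and 49.0 and Tpm2 at 10.7 and 12.5 TPM. The capping and severing gene Scin, the formin gene Diaph3 and the myosin gene Myh14 were under 1 TPM in both libraries.

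Promoters were searched on both strands for the CArG box, the site bound by serum response factor, whose targets include actin genes, and for the letters TATAAA of the TATA box. RefSeq promoters of GRCm38.p6, from 250 bases before to 50 after a start, were found for 9 of the 10 genes, 15 promoters in all, and Actb was not among them. The CArG box occurs in 1 of these 15, that of Actg1, and in 1.63% of all 32851 promoters. TATAAA occurs in 1 of the 15, with 2 matches, and in 13.6% of all promoters. That 1 is a promoter of Arhgdib, whose other promoters held no match, and the matches begin 234 and 219 bases before the start. The CArG box begins 90 bases before the RefSeq start, which lies inside the GENCODE span of Actg1 given above. The box is shown in capitals within 40 bases of the minus strand, chr11:120348561-120348600.
Actg1 promoter: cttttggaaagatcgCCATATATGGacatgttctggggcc
A match is a description of these letters and no evidence of binding.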

How the data were processed

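Members and lists were chosen with earlier results of these data known. Poly(A) RNA of 2 spleen libraries was quantified on mm10 with GENCODE annotation M4, per the deposited notes; neither quantifier nor strand option is named there, though per the labels the libraries are stranded. Expected counts, estimated reads per gene, stand as the authors deposited them, without normalization. The deposited TPM are scaled to 1 total over all entries of a table, and posterior mean TPM, their intervals (level not stated) and the posterior SD of counts come from the same tables. The deposited percent of a transcript is its part of its gene's TPM. Symbols, positions and sequences are from GENCODE M21 on the same assembly, which gave a symbol to 42462 of 43346 genes; of the 57 member transcripts, 55 had the same length there, Arhgdib-203 and Arhgdib-201 being the exceptions. The 97 spike-ins and 26248 other entries with 0 counts were left out of library sizes.

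Expected counts were rounded for folds with intervals, the count filter, DESeq2 size factors and the coefficient of variation (genes with 10 or more counts in each library), and not for log2 ratios. Ratios used TMM factors of 0.988 for library 2 and 1.01 for library 1 from edgeR 4.0.16 under R 4.3.3, and a prior count of 2 for log2 values. Genes needed 10 counts in total. DESeq2 1.42.0 gave alternative size factors. A count of 0 allows up to 3 counts. Reads are not independent molecules, so intervals and that limit describe counting error alone. The GC content was that of the leading transcript, in 20 bins. Shared stretches were exact 76-base matches on the transcript strand. The ratio step was tested on simulated data. Lists over 4 genes are named by their 3 highest genes, genes past 1.5-fold at 1 TPM or more, and genes under 1 TPM. Junction and contig lists, on mm9, were not used here. Python 3.11.15, pandas 2.3.3, numpy 2.4.6, scipy 1.17.1 and matplotlib 3.10.9 did the rest. A few items of the level comparison and of the lists are not reported here.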

Additional observations from a re-analysis of the deposited data

How the results depend on the processing

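Of 42 alternative values of the summary results, those not named here stayed within the spread of the libraries or within 1.5 times. Full lengths in place of effective lengths gave a Tmsb4x to Tmsb10 ratio of 2.80. Removing haemoglobin and pancreas genes before scaling gave a summed level of 20705 TPM. The median log2 ratio of the 10 genes was -0.062 as a ratio of deposited TPM and 0.11 after removal of the GC trend, which was chosen after seeing the data. The number past 1.5-fold was 2 by TPM, with Pfn1 joining Cfl1, and 0 with genes of 50 or more counts, with the GC trend removed and at 2-fold. The cause was not tested. With single libraries the summed level ranged from 11585 to 15723 TPM, the Actb to Actg1 ratio from 6.82 to 10.1 and the Tmsb4x to Tmsb10 ratio from 2.29 to 2.53. The order of levels held in library 2 alone, while 8 of 10 genes kept their place in library 1 alone, Was standing above Lcp1. The count of genes with a leading transcript at 90% or more was 3 or 4 under its alternatives. No paired analysis was possible because the series has a single group. With 2 libraries, no difference between them can be set against a spread.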
